A study of Homo sapiens with 20 samples.

Results

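The zinc-buffering system of AC16 cells was followed through 8 genes: the metallothioneins MT1E, MT1F, MT1G, MT1M, MT1X and MT2A, the transcription factor MTF1, and the zinc exporter SLC30A1. They were chosen by symbol, as a readout of metal exposure, and each matched 1 of the 58735 gene identifiers of the count tables. The series compared AC16 cells after e-cigarette aerosol with AC16 cells after filtered air, with both gases reaching the cells directly at an air–liquid interface. Messenger RNA was sequenced in 5 libraries per group, described as biological replicates, and the labels do not say what separated them, so p-values measure the spread between these libraries. Both groups were cultured in DMEM/F12 with serum and antibiotics. The sources used here state no metal content of the aerosol, no device, no dose and no duration.

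Metallothioneins are small, cysteine-rich proteins that bind zinc, copper and cadmium. When free zinc rises in a cell, or when cadmium displaces zinc from proteins, the zinc-finger factor MTF1 binds metal response elements and raises transcription of metallothionein genes and of SLC30A1, which moves zinc out across the plasma membrane. Heating elements of e-cigarettes can release metals into the aerosol, and metallothionein mRNA is a widely used sign of metal entry into cells.

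AC16 is an established human line made by fusing adult ventricular heart cells with transformed fibroblasts, and it divides in culture. Of 14 cardiomyocyte markers, MYH6, MYH7, MYL2, MYL7, TNNT2, NKX2-5 and NPPB had 0 counts in every library, which allows at most 0.0555 CPM per library (3 counts of the scaled total). CPM (counts scaled to a common library total) was computed after trimmed-mean (TMM) scaling of library size. Another 7 of the 14 had enough counts to be tested, among them TTN, with means of 26.8 CPM in air and 40.9 CPM after the aerosol. The 14 cardiomyocyte markers summed to between 30.3 and 54.9 CPM in air and to between 37.5 and 70.3 CPM after the aerosol. The 9 fibroblast markers were all measured and summed to between 7955 and 8650 CPM in filtered air and to between 5989 and 6811 CPM after the aerosol. Marker sums of epithelium ran from 176 to 266 CPM in air and from 128 to 149 CPM after the aerosol, those of leukocytes from 35.9 to 60.6 and from 33.2 to 56.7 CPM, and those of endothelium from 1.15 to 1.59 and from 0.721 to 3.28 CPM. The fibroblast marker VIM (log2 fold change -0.50, edgeR adjusted p = 0.00741) and the epithelial marker KRT18 (-0.67, edgeR adjusted p = 0.0136) were lower after the aerosol. They alone passed among 9 fibroblast and 5 epithelial markers, where 1.39% of all genes tested passed as lower. Of the fibroblast markers 6 were below 0 and 3 above, and of the epithelial markers 4 were below and 1 above. The part of these markers in the results was not tested. Library depth, as the sum of gene counts, ran from 65902331 to 88806394 in air and from 60482726 to 72099157 after the aerosol. Mitochondrially encoded genes took between 7.75% and 10.3% of counts in air and between 12.4% and 19.5% after the aerosol. Aerosol libraries 4 and 5 had the highest shares, 18.1% and 19.5%, and lay apart from the others on the first principal component. MALAT1, a nuclear non-coding RNA, ran from 2797 to 3765 CPM in air and was at 7486, 7673, 10538, 16390 and 44762 CPM in aerosol libraries 1 to 5, again highest in libraries 4 and 5. Values without these libraries are therefore given for the members. For the metallothioneins tested at higher counts, the log2 fold change without them was -0.03 for MT2A, -0.07 for MT1E and 0.15 for MT1X.

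The 250 bases before the start of transcription are shown for MT2A and MT1X, for SLC30A1, and for MT1H, a metallothionein gene with almost no counts here, because metal-driven transcription acts through short elements in this window. The sequences are from RefSeq on GRCh38.p14, whose promoter table held 4 of the 8 genes. Capitals mark the core of the metal response element, TGCACNC or TGCGCNC, on either strand.
MT2A, chr16:56608334-56608583, + strand: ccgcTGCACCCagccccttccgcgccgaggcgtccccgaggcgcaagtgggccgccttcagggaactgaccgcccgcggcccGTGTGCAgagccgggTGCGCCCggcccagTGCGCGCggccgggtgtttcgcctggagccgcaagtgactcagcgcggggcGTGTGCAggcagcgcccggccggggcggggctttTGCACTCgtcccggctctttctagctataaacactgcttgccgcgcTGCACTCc
MT1X, chr16:56682220-56682469, + strand: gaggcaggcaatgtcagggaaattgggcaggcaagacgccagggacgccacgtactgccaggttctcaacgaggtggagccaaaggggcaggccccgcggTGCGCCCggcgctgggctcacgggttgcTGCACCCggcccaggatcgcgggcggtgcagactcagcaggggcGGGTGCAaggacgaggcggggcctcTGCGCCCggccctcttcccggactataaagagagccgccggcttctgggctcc
MT1H, chr16:56669564-56669813, + strand: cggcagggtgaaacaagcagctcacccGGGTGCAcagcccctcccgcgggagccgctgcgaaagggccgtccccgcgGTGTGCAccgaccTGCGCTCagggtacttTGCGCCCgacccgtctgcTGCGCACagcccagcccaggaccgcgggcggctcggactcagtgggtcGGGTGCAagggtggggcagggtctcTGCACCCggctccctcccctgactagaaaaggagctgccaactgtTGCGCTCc
SLC30A1, chr1:211579162-211579411, - strand: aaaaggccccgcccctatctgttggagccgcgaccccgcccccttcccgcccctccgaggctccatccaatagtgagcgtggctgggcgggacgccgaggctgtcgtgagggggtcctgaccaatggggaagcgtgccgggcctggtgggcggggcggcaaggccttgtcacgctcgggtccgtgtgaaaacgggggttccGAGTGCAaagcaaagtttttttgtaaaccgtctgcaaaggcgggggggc

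The core matched 7 times in the MT2A window, 4 times in that of MT1X, 8 times in that of MT1H and 1 time in that of SLC30A1. The window of MTF1 held 0 matches, and that of MT1B, another metallothionein gene of the cluster, held 3. Of 35116 windows of the same length, 24.8% held at least 1 match and 0.37% held 4 or more. A TATA box with the letters TATAAA, searched on both strands as in 10.7% of windows, stood 1 time in the MT2A and MT1X windows and 0 times in the MT1H and SLC30A1 windows. The antioxidant response element core TGACNNNGC, found in 10.9% of windows, matched 1 time each in the MT2A, MT1X and SLC30A1 windows, in MT2A as TGACTCAGC, 104 to 96 bases before the start. In the 4 windows shown, 0 pairs of these motifs overlapped. A match describes letters and does not show binding.

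After the aerosol, the metallothionein, MTF1 and SLC30A1 mRNAs did not pass the test for change. The differences of the abundantly counted members ran from a log2 fold change of -0.34 for MTF1 to 0.19 for MT1X and SLC30A1. Of the 8 genes, 7 had enough counts to be tested, and 0 of the 7 had an adjusted p under 0.05 (edgeR quasi-likelihood test, Benjamini-Hochberg adjustment over all 20166 genes tested), where 3.01% of all genes tested did. Higher were 0 of the 7, beside 1.62% of all genes (327), and lower 0 of the 7, beside 1.39% (281). The split over all genes depended on scaling, with 482 higher and 171 lower by upper quartile and 244 and 318 by library size alone. Limma-voom gave 0 of 7, and DESeq2 0 of the 6 members for which it gave an adjusted p (MT1G had none). At an unadjusted p under 0.05 there was 1 of 7, MTF1, against 18.3% of all genes. The groups overlapped in all 7 tested members, and over all genes tested 7.45% did not overlap. The median log2 fold change of the 7 was 0.19, beside -0.0042 over all genes tested.

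**Figure D1:**
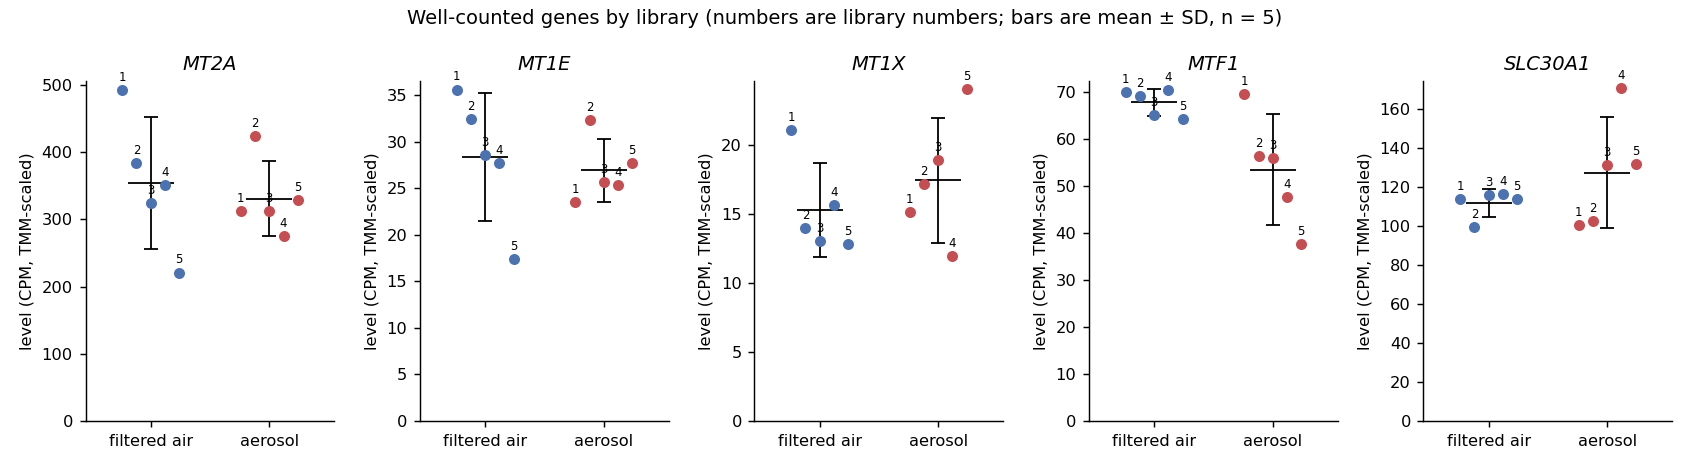
Level of MT2A, MT1E, MT1X, MTF1 and SLC30A1 in each of the 10 libraries, as CPM scaled by TMM, with the library number above each point and the mean ± SD of 5 libraries per group. The groups overlap for every gene, MT2A runs from 221 CPM in filtered air library 5 to 493 in filtered air library 1, and MTF1 is lowest in aerosol libraries 4 and 5.

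MT2A, the main inducible metallothionein of most human tissues, lies on chromosome 16 from 56608584 to 56609497 (GRCh38.p14). Its level was 493, 384, 325, 352 and 221 CPM in filtered air libraries 1 to 5, and 313, 425, 312, 275 and 329 CPM in aerosol libraries 1 to 5. Both the highest and the lowest of the 10 values were in filtered air, so the aerosol libraries all lay within the range of the controls. The means were 355 ± 98.2 CPM in air and 331 ± 56.1 CPM after the aerosol (SD, n = 5 per group), a log2 fold change of -0.10 with a 95% interval from -0.49 to 0.29 (edgeR adjusted p = 0.839). The interval corresponds to between 0.712 and 1.22 times the air level. Without filtered air replicate 1 the log2 fold change was 0.04.

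MT1E and MT1X stand in the same cluster, from 56625781 to 56627112 and from 56682470 to 56684196 on chromosome 16. MT1E stood at 35.6, 32.4, 28.5, 27.7 and 17.4 CPM in filtered air libraries 1 to 5 and at 23.5, 32.3, 25.7, 25.3 and 27.7 CPM in aerosol libraries 1 to 5. As with MT2A, filtered air library 1 was highest and library 5 lowest. Its log2 fold change was -0.08, with an interval from -0.47 to 0.32 (edgeR adjusted p = 0.883), and it was 0.01 under upper-quartile scaling and 0.02 without filtered air replicate 1. MT1X stood at 21.1, 13.9, 13.0, 15.6 and 12.8 CPM in air and at 15.1, 17.1, 18.9, 11.9 and 24.01 CPM after the aerosol, in library order. Here aerosol library 5 was highest and aerosol library 4 lowest, and the air values lay between them. The log2 fold change of MT1X was 0.19, with an interval from -0.27 to 0.65, or between 0.829 and 1.57 times the air level (edgeR adjusted p = 0.717), and it was 0.04 without e-cigarette aerosol replicate 5.

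MT1F, MT1G and MT1M were counted only sparsely, and their reads can also match the near-identical copies around them, and the sources used here do not say how such reads were counted. MT1F (56657959 to 56659303) had 38, 80, 50, 57 and 5 counts in filtered air libraries 1 to 5 and 75, 31, 37, 49 and 38 counts in aerosol libraries 1 to 5. The single low value was in filtered air library 5, which was also lowest for MT2A and MT1E. The log2 fold change of MT1F was 0.37, with a wide interval from -1.25 to 1.99 (edgeR adjusted p = 0.858). Leaving out filtered air library 5 gave 0.07, leaving out filtered air library 2 gave 0.61 and leaving out aerosol library 1 gave 0.14, while limma-voom on all libraries gave 0.83. Without aerosol libraries 4 and 5 the log2 fold change of MT1F was 0.38, with an interval from -1.40 to 2.16 (edgeR adjusted p = 0.891). MT1M (56632659 to 56633981) had 15, 27, 51, 0 and 3 counts in air and 0, 0, 0, 25 and 0 counts after the aerosol, too few to be tested. It thus had 0 counts in 4 of the 5 aerosol libraries and in 1 of the 5 air libraries. Tested with no low-count filter, MT1M gave a log2 fold change of -1.55 with an interval from -5.54 to 2.44 (edgeR adjusted p = 0.719). Without aerosol libraries 4 and 5, every remaining aerosol library was at 0 counts of MT1M. The difference then had an unadjusted p of 0.0215 and an adjusted p of 0.215 in edgeR. No fold is given for that setting, since a fitted fold against libraries at 0 depends on the prior count.

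MT1G (56666730 to 56668065) stood apart in a single aerosol library. It had 16, 0, 16, 19 and 13 counts in filtered air libraries 1 to 5 and 0, 12, 15, 22 and 153 counts in aerosol libraries 1 to 5. Aerosol library 5 alone was at 2.83 CPM, and the other 9 libraries lay between 0 and 0.342 CPM. The log2 fold change was 2.16 with an interval from -0.87 to 5.18 (edgeR adjusted p = 0.466), and 0.25 without e-cigarette aerosol replicate 5. Without aerosol libraries 4 and 5 it was -0.19.

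**Figure D2:**
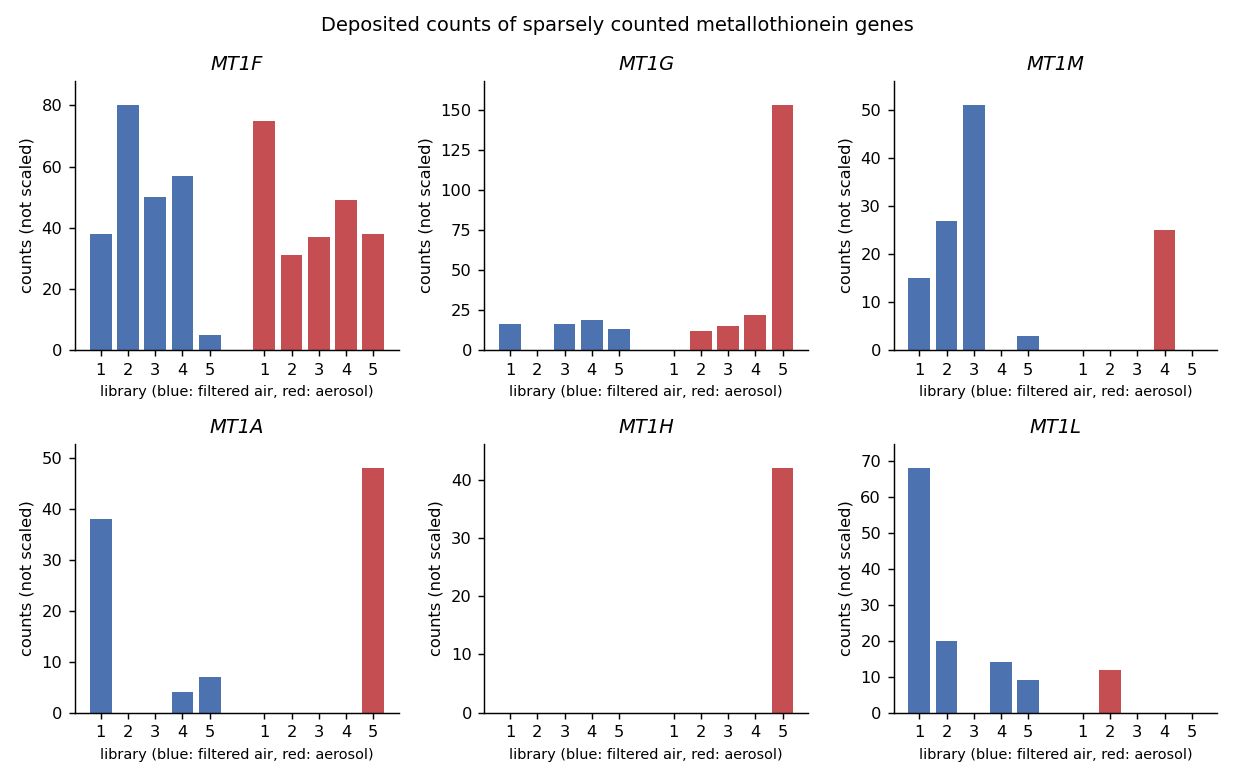
Deposited counts, not scaled, of MT1F, MT1G, MT1M, MT1A, MT1H and the pseudogene-like MT1L in filtered air libraries 1 to 5 and aerosol libraries 1 to 5. The bars of MT1G, MT1A and MT1H are highest in aerosol library 5, at 153, 48 and 42 counts, and most other bars of MT1A and MT1H are at 0.

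Other genes of the family were at or near 0. The files hold 14 further metallothionein genes and pseudogenes, and 0 of them had enough counts to be tested. MT1H, directly beside MT1G on chromosome 16 (56669814 to 56671129), had 42 counts in aerosol library 5 and 0 in the other 9. MT1A had 48 counts in aerosol library 5 and 38, 0, 0, 4 and 7 counts in filtered air libraries 1 to 5, with 0 in aerosol libraries 1 to 4. Aerosol library 5 was thus the highest of the 10 for MT1G, MT1H and MT1A. It was also the library with the highest share of mitochondrial counts, and the part of this in these values was not tested. MT3, known from brain, MT4, known from stratified epithelium, and MT1B had 0 counts in every library. Counts on the 9 pseudogenes and similar copies summed to at most 84 per library.

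The make-up of the metallothionein counts overlapped between the groups. Of the counts on all 20 metallothionein genes and pseudogenes, MT2A took 88.6 ± 0.563% in air and 87.6 ± 1.64% after the aerosol (SD, n = 5 per group). MT1E took 7.13 ± 0.511% and 7.17 ± 0.545%, and MT1X took 3.92 ± 0.704% and 4.64 ± 1.096%. The 95% Wilson intervals of these shares in single libraries were at most 0.966 percentage points wide and cover counting error only. Per kilobase of genomic span, introns included, MT2A held 92.5 ± 0.335% and 91.8 ± 1.16%, since its span is the shortest of the 6 genes. On that per-length scale the order of the shares was MT2A, MT1E and MT1X in both groups, and MT1F, MT1G and MT1M each averaged at most 0.146%. For every 100 counts on MT2A, MT1X had between 3.63 and 5.78 in air and between 4.03 and 7.30 after the aerosol, with overlapping groups. The summed level of the family was 400 ± 108 CPM in air and 377 ± 60.4 CPM after the aerosol, a ratio of 0.944, which is a description without a test. In these bulk libraries a change in the RNA of each cell and a change in the share of cells that make it cannot be told apart.

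MTF1, the zinc-sensing factor that drives these genes, lies on chromosome 1 from 37809574 to 37859592, a span that also holds the ribosomal protein pseudogene RPS2P13. Its level was 70.0, 69.1, 65.1, 70.5 and 64.3 CPM in filtered air libraries 1 to 5 and 69.6, 56.4, 56.0, 47.7 and 37.7 CPM in aerosol libraries 1 to 5. In 4 of the 5 aerosol libraries MTF1 was below every air library, and aerosol library 1 lay within the air range. The means were 67.8 ± 2.87 and 53.5 ± 11.8 CPM (SD, n = 5 per group), a log2 fold change of -0.34 with an interval from -0.66 to -0.03. The difference had an unadjusted p of 0.0355 and an adjusted p of 0.233 in edgeR, and so did not pass. The exact two-sided permutation test over every assignment of 5 of the 10 libraries gave p = 0.0317. The smallest p it can give is 0.00794, and 0 genes of all those tested passed after adjustment in it, so its adjusted value for MTF1, 0.194, does not bear on the call. Mitochondrial counts took 12.5%, 12.4%, 14.5%, 18.1% and 19.5% in aerosol libraries 1 to 5, so the libraries lowest in MTF1 were those with the highest shares and the highest MALAT1, and the part of this in the result was not tested. Without aerosol libraries 4 and 5 the log2 fold change of MTF1 was -0.17, with an interval from -0.40 to 0.07 (edgeR adjusted p = 0.502).

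SLC30A1, the plasma membrane zinc exporter and a target of MTF1, lies on chromosome 1 from 211571568 to 211579161. Its level was 114, 99.2, 116, 116 and 114 CPM in filtered air libraries 1 to 5 and 100.4, 102, 131, 171 and 131 CPM in aerosol libraries 1 to 5. Aerosol libraries 3, 4 and 5 lay above every air library, while libraries 1 and 2 lay within the air range. The means were 112 ± 7.13 and 127 ± 28.5 CPM (SD, n = 5 per group), a log2 fold change of 0.19 with an interval from -0.11 to 0.48, or between 0.926 and 1.40 times the air level (edgeR adjusted p = 0.533). Without aerosol libraries 4 and 5 it was -0.01, and without e-cigarette aerosol replicate 4 alone it was 0.05.

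**Figure D3:**
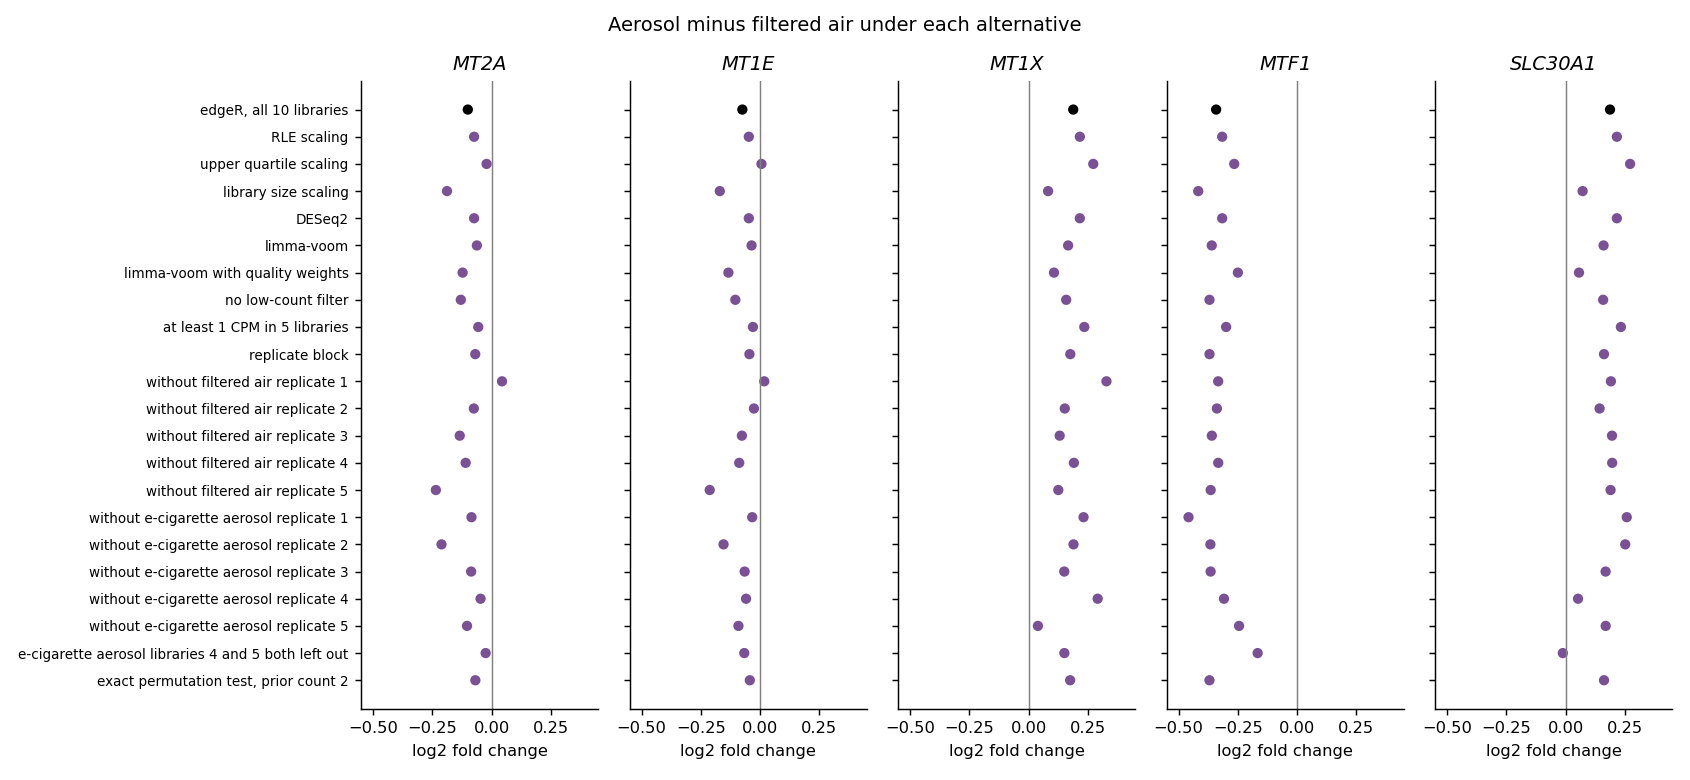
Log2 fold change, aerosol minus filtered air, of MT2A, MT1E, MT1X, MTF1 and SLC30A1 with edgeR on all 10 libraries (black) and under each alternative (purple), with a vertical line at 0. MTF1 stays below 0 in every setting shown, between -0.46 and -0.17, while MT2A, MT1E and SLC30A1 cross 0 in some.

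Within the groups, MT2A and MT1E varied together from library to library. The correlation of their log2 CPM, after the mean of each group was subtracted, was r = 0.94 by Pearson (p = 0.00139, adjusted 0.0139) and rho = 0.85 by Spearman (p = 0.0034, adjusted 0.034), over 10 libraries. These are exact permutation tests over 14400 rearrangements within groups, adjusted over 10 pairs of members. Without filtered air libraries 1 and 5, the farthest from the median in MT2A, r was 0.83. MT2A and MT1X gave r = 0.59 (p = 0.0765, adjusted 0.382) and rho = 0.67 (p = 0.0438, adjusted 0.219) by the exact permutation test, with r = 0.36 without the same libraries. For MT2A and SLC30A1, r was -0.38 (p = 0.158, adjusted 0.395) and rho -0.45 (p = 0.141, adjusted 0.282) by the exact permutation test, with r = -0.72 without them. For MTF1 and SLC30A1, r was -0.58 (p = 0.288, adjusted 0.576) and rho -0.66 (p = 0.139, adjusted 0.282) by the exact permutation test, with r = -0.70 without aerosol libraries 1 and 5. Only the pair MT2A and MT1E passed among the 10 pairs. These genes share the library and its scaling, and reads of near-identical copies may be split between them, a part that was not tested.

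**Figure D4:**
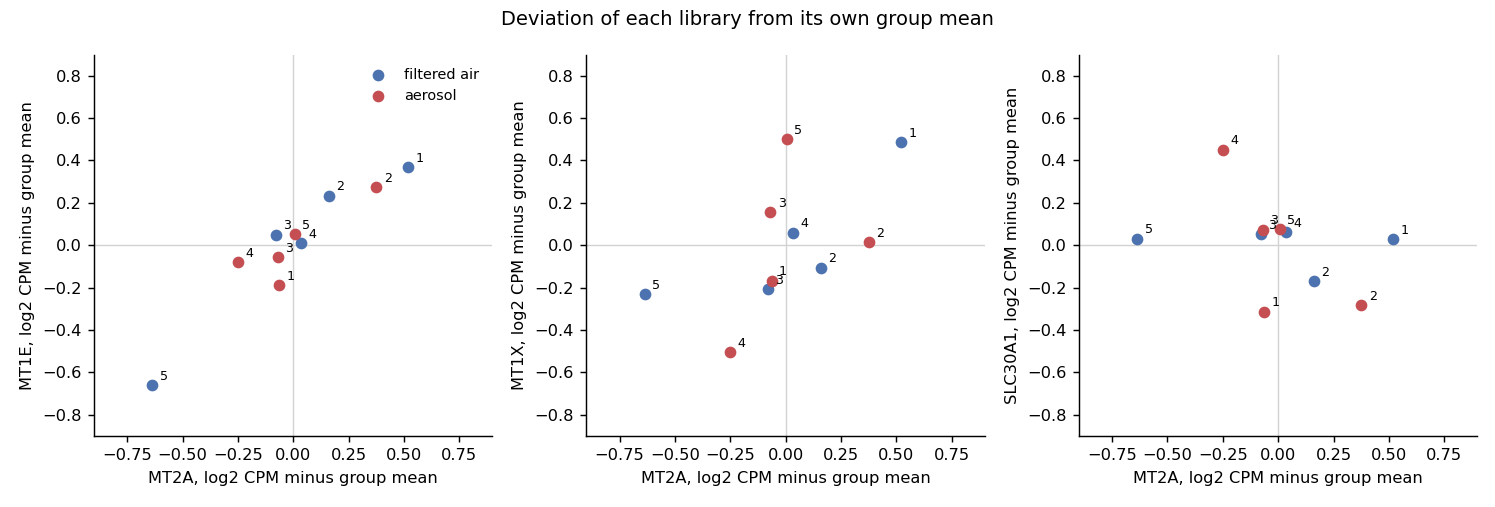
Deviation of each library from its own group mean in log2 CPM, for MT1E, MT1X and SLC30A1 (vertical axes) against MT2A (horizontal axis), with filtered air in blue, aerosol in red and library numbers beside the points. The MT1E points rise with MT2A (r = 0.94), with filtered air library 5 lowest and filtered air library 1 highest in both, and the SLC30A1 points do not (r = -0.38).

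Ranked by this within-group correlation over the 10 libraries among 20165 other genes, MT1E came second for MT2A. FBXO27, which encodes an F-box protein, came first (r = 0.97), followed after MT1E by SKI, a transcriptional co-repressor (r = 0.94), RPS14, a ribosomal protein (r = 0.94), and ATP6V1F, a subunit of the vacuolar proton pump (r = 0.93). For SLC30A1 the 5 most alike were SKAP2, UBE4A, ZDHHC20, ZNF639 and DENR, with r between 0.94 and 0.95. No p is given for these, since they were picked as the highest of all genes, and none of the 5 was a metallothionein.

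The other zinc transporters also gave 0 calls. Of the 9 other SLC30A genes, most of which move zinc out of the cytosol into vesicles or out of the cell, 6 were tested. Among these, 0 passed in either direction in edgeR, with a median log2 fold change of 0.03. DESeq2 and limma-voom gave 0 as well, and 2 had an unadjusted p under 0.05, as did 18.3% of all genes tested. These were SLC30A7, a Golgi zinc transporter (0.29, edgeR adjusted p = 0.175), and SLC30A6 (0.48, edgeR adjusted p = 0.170), the latter named after its value was seen. SLC30A9 was at 127 ± 37.9 CPM in air and 139 ± 16.0 CPM after the aerosol (SD, n = 5 per group). Of 14 SLC39A genes, which move zinc into the cytosol, 11 were tested and 0 passed in edgeR, DESeq2 or limma-voom. This too lies near the 3.01% of all genes in edgeR. Their median was -0.20, and -0.05 without aerosol libraries 4 and 5. Of the 11, 9 were below 0, beside 10155 of all 20166 genes tested. An unadjusted p under 0.05 in edgeR was found for 1 of the 11, beside 18.3% of all genes tested. It was SLC39A7, a zinc channel of the endoplasmic reticulum (-0.28, edgeR adjusted p = 0.273), named after its value was seen. SLC39A9 and SLC39A6, highest of the list in mean CPM, were at -0.24 and 0.11. SLC39A14, which also carries iron and manganese, was at 121 ± 5.07 CPM in air and 99.0 ± 28.2 CPM after the aerosol, with overlapping groups (edgeR adjusted p = 0.414), and was likewise named after its value was seen.

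**Figure D5:**
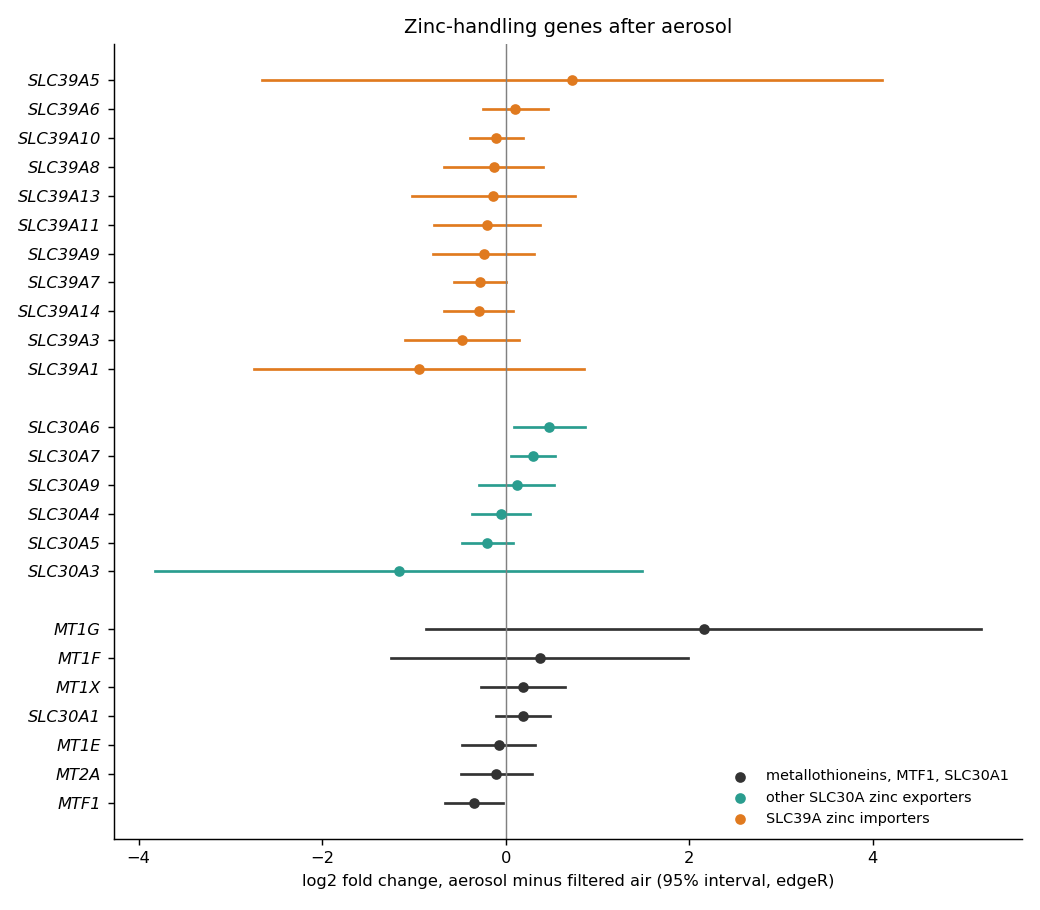
Log2 fold change, aerosol minus filtered air, with its 95% interval from edgeR for the 7 tested members (black), 6 other SLC30A zinc exporters (green) and 11 SLC39A zinc importers (orange). Most intervals include 0, none of the genes passed after adjustment over all genes, and MT1G, SLC30A3 and SLC39A5 have the widest intervals at low counts.

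Genes linked to MTF1 outside the metallothionein family, most of them in mouse, went lower where they passed. Of 8 such genes, all tested, 2 fell and 0 rose in edgeR, with a median log2 fold change of -0.55. PGF, the growth factor, ran from 7.58 to 14.2 CPM in air and from 3.35 to 5.79 CPM after the aerosol, and fell by 1.30 on the log2 scale (edgeR adjusted p = 0.0173). SELENOW, a small selenoprotein, ran from 16.2 to 21.98 CPM in air and from 6.69 to 12.6 CPM after the aerosol, and fell by 0.96 (edgeR adjusted p = 0.0240). Neither gene's groups overlapped, which adds no support, since both were named because they passed. In the list, groups did not overlap for 3 of the 8, beside 7.45% of all genes tested. The other was SELENOH (-0.51, edgeR adjusted p = 0.250), named after its value was seen. Over all genes tested, 1.39% passed as lower. The list was chosen with earlier results of these data known, so its counts beside these shares are a description and not a test. PGF and NDRG1, which was at -0.70 (edgeR adjusted p = 0.0660), are also induced by low oxygen. NDRG1, named after its value was seen, passed in DESeq2. The call of PGF was lost without filtered air replicate 1, 2 or 4, with an edgeR adjusted p of up to 0.0556. That of SELENOW was lost without filtered air replicate 2, 3 or 4, with an edgeR adjusted p of up to 0.0729, and with the replicate number as a block, where it was 0.0577. SLC39A10, which MTF1 represses in mouse, was at -0.10, and GCLC, the catalytic subunit of the first enzyme of glutathione synthesis, at 0.19, and neither passed. Both were named after their values were seen.

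Copper handling and the transport of other metals gave 1 call. Of 11 tested copper genes 0 passed in edgeR or limma-voom, where 3.01% of all genes tested passed in edgeR. The median of the copper genes was -0.34. An unadjusted p under 0.05 in edgeR was found for 3 of the 11, beside 18.3% of all genes tested. The copper importer SLC31A1 was at -0.34 (edgeR adjusted p = 0.127) and SCO1, which delivers copper to cytochrome oxidase, at 0.14. The copper-exporting pump ATP7A was at 0.35 (edgeR adjusted p = 0.171) and passed in DESeq2 but not in limma-voom. It was named after its value was seen. Of 12 transporters of magnesium, manganese and other ions, with a median of 0.06, 1 rose, where 1.62% of all genes tested passed as higher. It was CNNM2, a membrane protein of magnesium handling, which ran from 25.2 to 33.6 CPM in air and from 42.0 to 52.9 CPM after the aerosol, 0.61 higher on the log2 scale (edgeR adjusted p = 0.0247). The call of CNNM2 did not hold when filtered air library 1, 2, 3 or 4, or aerosol library 4, was left out, with an edgeR adjusted p of up to 0.0786, and was 0.0716 without aerosol libraries 4 and 5.

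Stress genes that metals such as cadmium also induce gave 0 calls in edgeR. Of 15 tested, 0 passed in edgeR or limma-voom, where 3.01% of all genes tested passed in edgeR. The median of the 15 was -0.13, and -0.03 without aerosol libraries 4 and 5. An unadjusted p under 0.05 in edgeR was found for 6, beside 18.3% of all genes tested. Of these, HMOX1, DNAJB1 (-0.31), GCLM (-0.36), SRXN1 (-0.33) and NQO1 (-0.27) were lower and ATF3 was higher. DNAJB1, GCLM, SRXN1 and NQO1 were named after their values were seen. HSPA8 and TXNRD1, highest of the list in mean CPM, were at -0.12 and -0.17. HMOX1, the heme-degrading enzyme that cadmium strongly induces, was at 18.3 ± 5.59 CPM in air and 8.41 ± 3.92 CPM after the aerosol (edgeR adjusted p = 0.0787), and ATF3, a stress transcription factor, at 2.35 ± 1.04 and 5.54 ± 2.74 CPM (edgeR adjusted p = 0.115). HMOX1 also passed, as lower, in edgeR with the replicate number as a block (adjusted p = 0.0448) and when aerosol library 2 was left out (adjusted p = 0.0331). Both passed in DESeq2, HMOX1 as lower and ATF3 as higher, and both are named here after their values were seen. Glucocorticoids also induce metallothionein genes. Of 10 tested glucocorticoid-induced genes, with a median of -0.11, 1 rose, where 1.62% of all genes tested passed as higher. SGK1, a kinase of sodium transport and cell survival, ran from 42.8 to 53.8 CPM in air and from 71.8 to 128 CPM after the aerosol, 0.87 higher on the log2 scale (edgeR adjusted p = 0.0137), and FKBP5, a co-chaperone of the receptor that is a common readout of the hormone, was at -0.15 (edgeR adjusted p = 0.765). FKBP5 was named after its value was seen.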

How the data were processed

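The authors deposited 1 table of whole-number counts per gene for each of 10 mRNA libraries. Build hg38 and the tools featureCounts 1.5.0-p3, HISAT and DESeq 1.8.3 come from the submitters' processing notes, which assign no roles. How multiply matching reads and strand were handled is not stated there. Per the labels, RNA was taken with TRIzol and libraries made with a SMARTER mRNA kit. The 10 miRNA libraries were not analysed here.

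Counts were tested with edgeR 4.0.16 (R 4.3.3): filterByExpr, TMM scaling, robust quasi-likelihood fit on exposure group, 20166 genes tested, 38569 left out as too low. Intervals at 95% and standard errors were derived from the F statistic of each fold change, and the script was tested on simulated data. Log2 CPM used a prior count of 2. Alternatives were other scalings, DESeq2 1.42.0, limma-voom (limma 3.58.1), other filters and thresholds, the replicate number as a block, exact permutation, and leaving out libraries. The members and lists were chosen with earlier results of these data known. Named were all members, every list gene past 0.05 or otherwise the 2 highest in mean CPM, and the 5 genes most alike to MT2A and to SLC30A1. Other genes are said to be named after their values were seen. No replicate pair agreed within sampling noise (lowest chi-square per degree of freedom 64.3).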

Additional observations from a re-analysis of the deposited data

Results flagged for a closer look

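In groups of 5 libraries, 7 values lay far from the rest by Dixon's criterion (gap to the nearest over the range above 0.71) among 21 groups examined in 14 genes. Chance flags about 1 in 20 groups of continuous values, but that rate does not apply to the 4 groups of MT1H, MT1A, MT1M and MT1L in which a single library had counts and the others had 0, which always meet the criterion. Aerosol library 5 was high for MT1G (2.83 CPM, next 0.342), MT1H (0.777 CPM, next 0) and MT1A (0.888 CPM, next 0), on 153, 42 and 48 counts. Aerosol library 4 was high for MT1M (0.388 CPM, 25 counts), and aerosol library 2 for MT1L (0.173 CPM, 12 counts). Filtered air library 1 was high for MT1A (0.440 CPM, 38 counts). Filtered air library 2 was low for SLC30A1 (99.2 CPM, next 114).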

How the results depend on the processing

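In every alternative run, 0 members passed. MT1E was at 0.0054 with upper-quartile scaling, and without aerosol libraries 4 and 5 MT1G was at -0.19 and SLC30A1 at -0.012. Leaving out 1 library in turn, the log2 fold change ran from -0.21 to 0.017 for MT1E, from -0.24 to 0.044 for MT2A and from 0.25 to 2.48 for MT1G, and the edgeR adjusted p of MTF1 was lowest, 0.0878, without e-cigarette aerosol replicate 1. DESeq2 gave MT1G no adjusted p. The count of all genes higher and lower was 948 and 650 with DESeq2, 575 and 527 with voom quality weights, 54 and 33 at an adjusted p under 0.01, 631 and 582 at 0.1, and without single libraries it ran from 110 to 383 and from 73 to 374. Upper-quartile scaling gave 171 lower, and leaving out aerosol libraries 4 and 5 gave 188 higher. Library-size scaling moved the median of all genes to -0.10. Upper-quartile scaling gave 482 higher.

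Same-numbered libraries of the groups shared little deviation over all genes (correlations from 0.0078 to 0.0529). Such values cannot show whether equal numbers mark libraries handled in pairs, which the labels do not say. The replicate block gave 205 genes higher, 1 MTF1-linked gene and 1 stress gene (HMOX1), and left MT2A at -0.07, MTF1 at -0.37 (edgeR adjusted p = 0.171) and 0 members past the threshold. MTF1-linked calls ran from 0 to 3 without single libraries and were 0 at an adjusted p under 0.01. Calls for other metal ions ran from 0 to 1, with 0 at 0.01 and 0 without aerosol libraries 4 and 5. Stress calls ran from 0 to 1, with 2 in DESeq2 and 1 at 0.1. Copper gave 1 in DESeq2, and glucocorticoid genes 0 at 0.01. The cause of these shifts was not tested. Per kilobase of span the shares over all libraries were 92.1% for MT2A, 5.13% for MT1E and 2.37% for MT1X, against 88.1%, 7.15% and 4.28% of counts. Low counts limit MT1F, MT1G and MT1M.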
